A study of Homo sapiens with 6 samples.

Results

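Binding of the glucocorticoid receptor (GR) was examined across the metallothionein gene cluster on chromosome 16, from MT4 to MT1X. The cluster was taken as the window chr16:56580000-56730000 of hg19, 150 kb long, and its members were all merged sites with a centre inside that window. There were 7 such sites, of 43893 merged over 12 peak lists. The data come from GR ChIP-seq in stable lines made from U-2OS, a human osteosarcoma line. The groups were the MR/GR cell with dexamethasone, in which the mineralocorticoid receptor (MR) is co-expressed with GR, the GR cell with dexamethasone, and each line with vehicle. Dexamethasone, a synthetic glucocorticoid, was given at 100 nM for 2 hr, and the vehicle was DMSO. Every immunoprecipitation used the same antibody against GR, each group had 3 numbered lists, and the 2 input DNA samples have no list here. By their labels, the GR-cell input had 100 nM dexamethasone and the MR/GR-cell input 0 nM. Any effect of that difference on the comparison of the lines was not tested. Each receptor combination is 1 cell line. Nothing in the labels ties the 3 lists of a group to separate cultures, and the p-values below may therefore reflect technical spread alone.

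Metallothioneins are small, cysteine-rich proteins that bind zinc and copper and take up toxic metals such as cadmium. Their genes are switched on by metals through MTF-1, a zinc-sensing transcription factor that binds short metal response elements in their promoters. Several are also induced by glucocorticoids, and the MT2A promoter is a textbook example of one that carries both metal response elements and a glucocorticoid response element upstream of the start. GR is held in the cytoplasm without hormone and binds DNA after a glucocorticoid enters the cell.

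The cluster holds 16 metallothionein genes and pseudogenes in a RefSeq table of GRCh38.p14, among them all 9 listed genes: MT4, MT3, MT2A, MT1E, MT1M, MT1A, MT1F, MT1G and MT1X, in that order. MT2A is the widely expressed form, MT1E, MT1M, MT1A, MT1F, MT1G and MT1X are MT1 isoforms, MT3 is known from brain and MT4 from stratified epithelia. No hg19 gene annotation was used, so sites were paired with genes by spacing within each build and by general knowledge of the locus, in which GR binds beside MT2A. Site 3 to site 4 measured 17.2 kb between GR-cell centres, and the starts of MT2A and MT1E are 17.2 kb apart in GRCh38, with a mismatch of 18 bp. Site 4 to site 7 measured 56.7 kb, and the starts of MT1E and MT1X are 56.7 kb apart, with a mismatch of 34.3 bp. Each site was then set in turn on each of the 16 gene starts. A start here was the gene's lower coordinate whatever its strand, so the true start of a minus-strand gene was not tried. The pairing above was the only one that placed 3 sites within 100 bp of a gene start. Every other placed 1 or 2, and the site that was set on a start always counted as 1 of them. Spacing leaves the distance of each site from its own gene's start unknown, so distances between sites and genes below are approximate, with site 3 set on the MT2A start.

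The upstream sequences of MT2A, MT1X and MT4 are shown because sites 3 and 7 pair with the first and second of these genes while no site lies near MT4. They are the 250 bases before each gene's start from RefSeq (GRCh38.p14, plus strand), chr16:56608334-56608583 for MT2A, chr16:56682220-56682469 for MT1X and chr16:56564823-56565072 for MT4. These coordinates belong to another build than the peaks, so whether a peak covers these bases was not tested. Capitals mark the metal response element cores TGCACNC and TGCGCNC on either strand.
MT2A: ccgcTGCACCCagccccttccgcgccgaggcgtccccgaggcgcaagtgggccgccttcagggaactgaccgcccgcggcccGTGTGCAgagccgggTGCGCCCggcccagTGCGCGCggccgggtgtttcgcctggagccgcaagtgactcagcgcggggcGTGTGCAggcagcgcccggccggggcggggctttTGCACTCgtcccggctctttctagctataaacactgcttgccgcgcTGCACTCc
MT1X: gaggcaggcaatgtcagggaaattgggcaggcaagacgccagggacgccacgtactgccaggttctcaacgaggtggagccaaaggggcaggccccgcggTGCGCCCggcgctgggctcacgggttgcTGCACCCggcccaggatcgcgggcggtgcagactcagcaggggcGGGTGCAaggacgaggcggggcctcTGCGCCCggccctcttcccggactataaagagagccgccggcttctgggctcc
MT4: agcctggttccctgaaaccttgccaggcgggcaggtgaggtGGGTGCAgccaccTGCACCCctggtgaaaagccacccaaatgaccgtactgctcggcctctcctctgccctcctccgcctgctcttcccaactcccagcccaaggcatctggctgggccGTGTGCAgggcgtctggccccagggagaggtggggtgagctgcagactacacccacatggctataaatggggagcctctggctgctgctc

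The MT2A sequence held 7 matches to these cores, 5 of TGCACNC and 2 of TGCGCNC, the nearest ending 2 bases before the start. MT1X held 4 matches, 2 of each core, and MT4 held 3, all of TGCACNC. The matches did not overlap one another in these 3 sequences. Over 35116 promoter entries of 27305 genes, 24.8% had at least 1 match in the same 250 bases. At least 7 matches were found in 0.0313% of entries, at least 4 in 0.370% and at least 3 in 1.58%. MT1H, an MT1 gene outside the list with no site near it, held 8 matches, and MT1B, likewise without a near site, held 3. The palindromic GR element was searched as ACANNNTGT with a G 2 letters before it and a C 2 letters after it, and 0.327% of entries held it. It was in none of the 5 cluster promoters in the table (MT2A, MT1X, MT4, MT1B and MT1H), which says only that these letters are not in this stretch. Bases further upstream than these 250 were not searched, so an element there, at MT2A too, would be missed. The table matched 3 of the 9 listed genes, without MT1E, MT1M, MT1A, MT1F, MT1G and MT3.

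After dexamethasone, each of the 3 MR/GR-cell lists had 5 peaks in the window, at sites 1, 2, 3, 4 and 7. The GR-cell lists had 7, 7 and 6 peaks, at the same 5 sites, at site 5 in all 3 lists and at site 6 in lists 1 and 2. With vehicle, all 3 lists of the MR/GR cell and all 3 of the GR cell had 0 peaks. The cluster thus had the same 5 sites in every treated list of both lines, and the additional sites came from the GR cell.

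**Figure D1:**
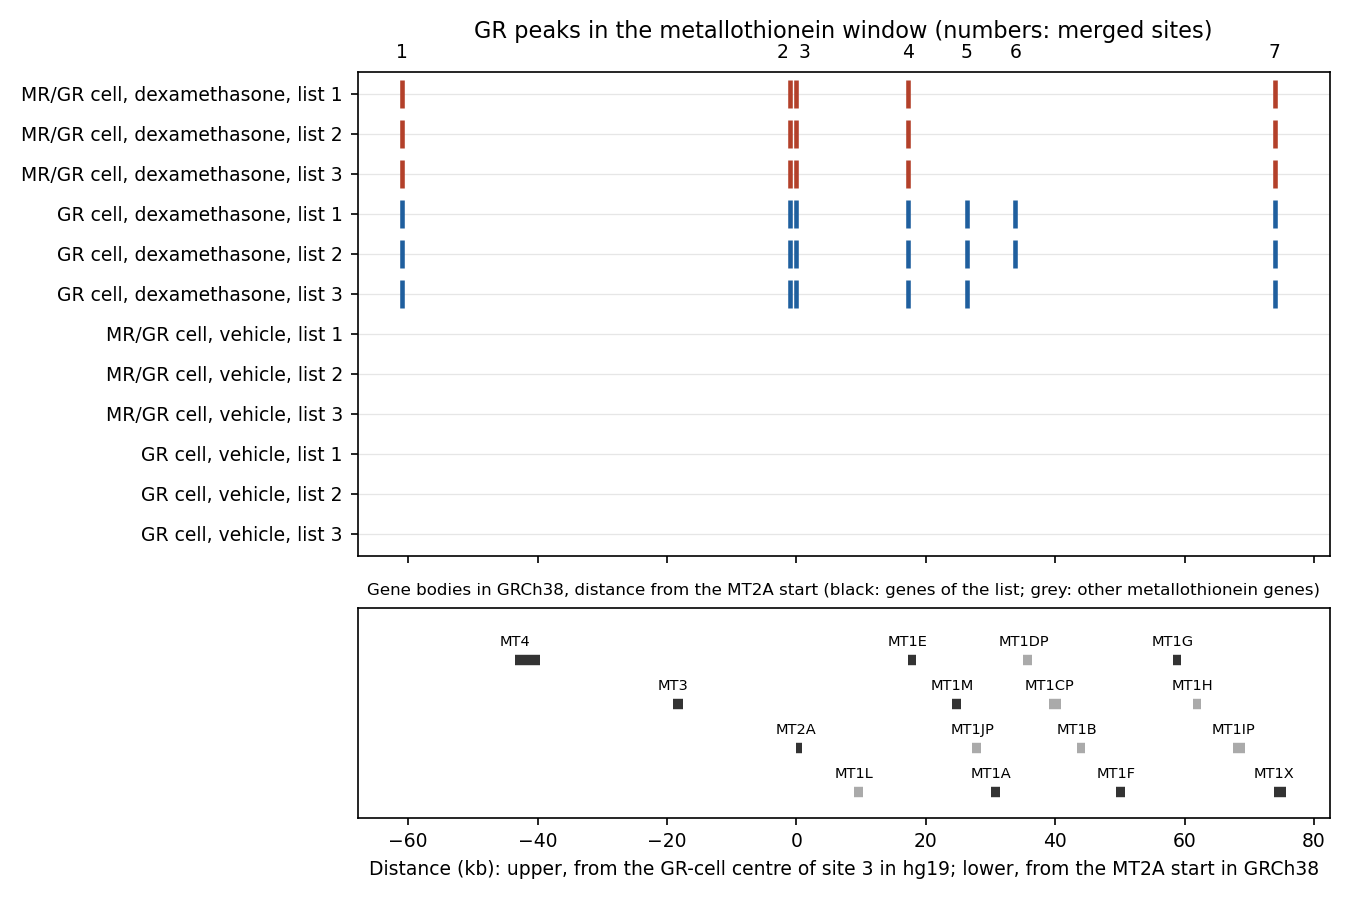
Upper panel: each tick is the centre of a called peak in 1 of 12 lists, by distance in kb from the GR-cell centre of site 3 (hg19), and the numbers name the sites. Lower panel: gene bodies by distance in kb from the MT2A start in GRCh38, so the panels share a scale and not a coordinate system. Sites 1, 2, 3, 4 and 7 appear in all 6 treated lists, sites 5 and 6 only in GR-cell lists, and the 6 vehicle lists are empty.

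Sites 2 and 3 lie beside MT2A. Site 3 spanned chr16:56642015-56642438 and was called in 3 of 3 MR/GR-cell lists and 3 of 3 GR-cell lists. Its centres lay at -2.33, 12.67 and 7.67 bp in the MR/GR cell and at 5.67, 0.67 and -6.33 bp in the GR cell, counted from the GR-cell mean. All 6 centres of this site fell within 19 bp, and the lines overlapped. Site 2 spanned chr16:56641006-56641436, also in 6 of 6 treated lists, 0.982 kb before site 3 by mean centre. Its centres lay at 51.67, 33.67 and 19.67 bp in the MR/GR cell and at 22.67, -3.33 and -19.33 bp in the GR cell, a range of 71 bp. The lines overlapped by 1 list, and the difference of 35 bp (SE 15.3) gave an exact permutation p = 0.2, two-sided. A site in all 6 lists with another such site within 2 kb was uncommon, at 2.85% of 3017 sites, and sites 2 and 3 were the 2 such sites among the 5 here.

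Site 4 pairs with MT1E and spanned chr16:56659235-56659658. Its centres lay at 10.67, 17.67 and 20.67 bp in the MR/GR cell and at -5.33, 6.67 and -1.33 bp in the GR cell. It was the 1 site of the 5 where the lines did not overlap, against 13.2% of the 3017 sites in all 6 lists. The difference of 16.3 bp (SE 4.61) gave p = 0.1 in the exact permutation test, two-sided, the smallest value 3 lists against 3 allow. The median absolute shift between the lines over all 3017 sites was 16.7 bp, so the shift at MT1E had the usual size.

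Site 7 pairs with MT1X, the last gene of the cluster, and spanned chr16:56715948-56716371. Its centres lay at 1.33, 25.33 and -10.67 bp in the MR/GR cell and at 1.33, 10.33 and -11.67 bp in the GR cell, and the means were 5.33 bp apart (SE 12.4, p = 0.7 in the same exact test). Lists of both lines spread over the same stretch here. MT2A, MT1E and MT1X were thus the 3 listed genes whose starts matched the spacing of sites, and each of those sites was in all 6 treated lists.

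Site 1 spanned chr16:56581072-56581501, about 17.5 kb before MT4 and 60.0 kb before site 2. Its centres lay at 70, 61 and -47 bp in the MR/GR cell and at -13, -6 and 19 bp in the GR cell. MR/GR-cell list 3 stood on the other side of the GR-cell centres from lists 1 and 2. The range of all 6 centres was 117 bp, against a median of 69 bp over sites in all 6 lists, of which 15.2% had a range at least as wide. The means of the lines were 28 bp apart (SE 38.8, p = 0.4 in the same exact test). Its centre lay 1.28 kb inside the left edge of the window, the only member close to an edge, and site 7 lay 13.8 kb from the right edge.

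**Figure D2:**
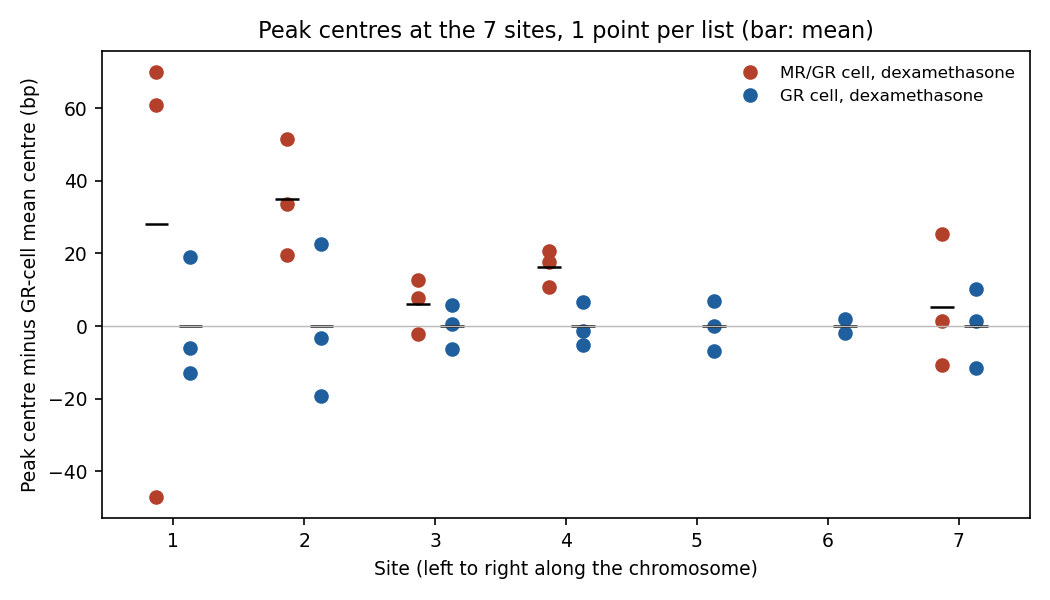
Peak centre of each treated list minus the GR-cell mean centre of the site, in bp, for the 7 sites, with 1 point per list and a bar at the mean. Centres at site 3 stay within 19 bp, site 4 is the one where the MR/GR-cell points all lie above the GR-cell points, and site 1 has the widest range at 117 bp.

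Sites 5 and 6 were called in the GR cell and in no MR/GR-cell list. Site 5, chr16:56668350-56668773, was in 0 of 3 MR/GR-cell lists and 3 of 3 GR-cell lists, with GR-cell centres at 7, -7 and 0 bp. It lay between MT1M, an MT1 isoform gene, and the pseudogene MT1JP, about 0.932 kb past the end of MT1M and 0.826 kb before MT1JP, too close to say which is nearer. Site 6, chr16:56675905-56676270, was in 0 of 3 MR/GR-cell lists and 2 of 3 GR-cell lists, about 2.35 kb past MT1A and 1.25 kb before the pseudogene MT1DP. The site was not listed in GR-cell list 3, the shortest treated list of that line with 26191 peaks. Over the genome, 65.6% of the 22935 sites in 3 of 3 GR-cell lists were in no MR/GR-cell list, against 1 of 6 in the cluster. Of the sites in 2 GR-cell lists, 90.3% were in no MR/GR-cell list, as was site 6.

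The remaining listed genes had no site of their own. On the same approximate scale, MT3 lay 16.5 kb from the nearest site, MT1G 14.5 kb and MT1F 15.5 kb. MT4 was nearest to site 1 at 17.5 kb. Unlisted neighbours without a site within 4 kb were MT1B at 9.45 kb, MT1H at 11.4 kb and the pseudogenes MT1L at 6.98 kb, MT1CP at 5.25 kb and MT1IP at 4.65 kb. The longest stretches without a site were the 60.0 kb between sites 1 and 2, which take in MT4 and MT3, and the 40.1 kb between sites 6 and 7, which take in MT1B, MT1F, MT1G and MT1H.

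The response to dexamethasone was tested on peaks per list. The window held 5.00 ± 0 peaks per treated list in the MR/GR cell and 6.67 ± 0.577 in the GR cell, against 0 in each vehicle list (mean ± SD, n = 3 lists each). On the log2(peaks + 1) scale the difference was 2.58 in the MR/GR cell, where all lists of a treatment were equal, and 2.94 (SE 0.06) in the GR cell, each with an exact permutation p = 0.1, two-sided. Over both lines, with treatments permuted within a line, it was 2.76 (SE 0.03). Both SE values rest on the spread of the 3 treated GR-cell lists, since the lists of every other group were equal. The two-sided exact permutation test gave p = 0.005, which 400 arrangements cannot go below. The vehicle lists were short, with 183 peaks in all in the MR/GR cell and 588 in the GR cell. At the treated lists' share of peaks in the window (0.0720% in the MR/GR cell and 0.0211% in the GR cell), lists of those sizes would hold 0.132 and 0.124 peaks, so the absence of vehicle peaks could not be told from short lists. The nearest vehicle peak on chromosome 16 lay 32.4 Mb away in the MR/GR cell and 1.04 Mb away in the GR cell. Among all sites in 6 treated lists, 0.729% had a peak in any vehicle list, and 0 of the 5 in the cluster did.

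Between the lines after dexamethasone, every MR/GR-cell list had fewer peaks in the window than any GR-cell list, by 1 or 2. The log2(peaks + 1) difference was -0.35 (SE 0.06), and the two-sided exact test by permutation gave p = 0.1. That SE again rests on the GR-cell lists alone. Total list length differed by -2.29 (SE 0.46) in log2 peaks, with 3713, 10459 and 6660 peaks in the MR/GR cell and 37650, 30912 and 26191 in the GR cell. Of 10000 peaks in a list, the window held 13.5, 4.78 and 7.51 in the MR/GR cell and 1.86, 2.26 and 2.29 in the GR cell. The means were 8.58 ± 4.44 and 2.14 ± 0.242 (SD, n = 3 lists each), 6.45 apart (SE 2.57) with a ratio of 4.01 and p = 0.1 in the same exact test. The difference was 4.01 without MR/GR-cell list 1, the shortest. Since the window's peaks hardly varied, this share mostly restates list length.

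**Figure D3:**
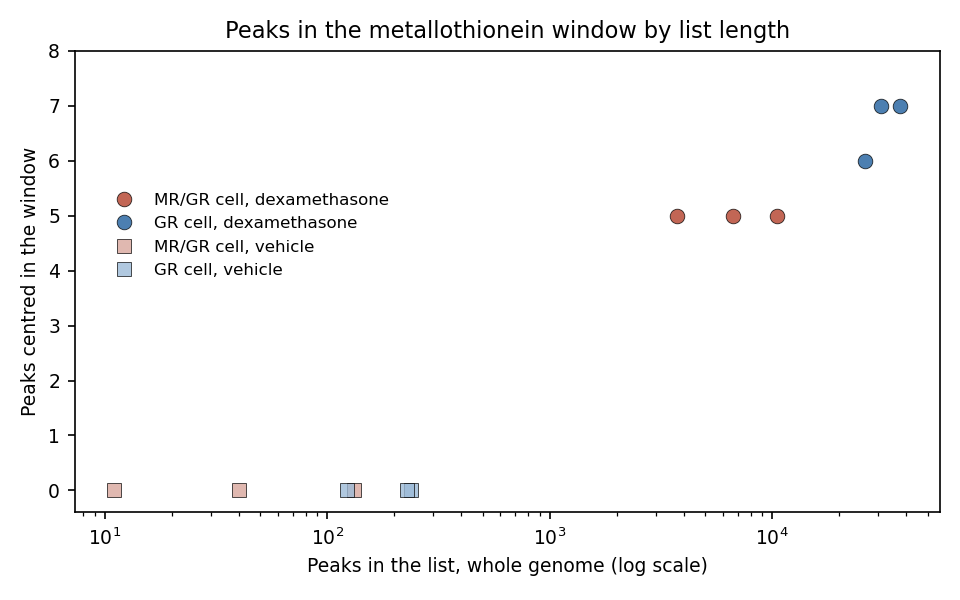
Peaks centred in the window (vertical) against all peaks of the same list (horizontal, log scale), 1 point per list. The 3 MR/GR-cell dexamethasone lists stay at 5 peaks while their lengths range between 3713 and 10459, the GR-cell dexamethasone lists have 6 or 7, and the 6 vehicle lists have 0.

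Sites of the cluster that the GR cell held were mostly held by the MR/GR cell too. Of the 7 sites in at least 2 of 3 GR-cell lists, 5 were in at least 2 of 3 MR/GR-cell lists (71.4%), against 17.9% of 30365 such sites over the genome and 18.8% of 877 on chromosome 16. Of the 6 sites in 3 of 3 GR-cell lists, each single MR/GR-cell list had 5, against 14.5% of 22935 over the genome in list 1, 30.9% in list 2 and 24.6% in list 3. All 5 MR/GR-cell sites of the cluster were GR-cell sites, as were 90.9% over the genome. Of the 7 sites, 5 were in all 6 treated lists, against 6.90% of the 43713 sites of any treated list. Chromosome 16 had 87 sites in all 6 lists. Neighbouring sites are not independent of one another, and no test was made over the 7.

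The cluster was also set beside other windows of its length. Of 15089 windows of 150 kb with a treated site, 0.285% held at least 5 MR/GR-cell sites and 1.89% at least 7 GR-cell sites, while the medians were 0 and 2. At least 5 sites in all 6 lists were found in 0.0928% of windows, which is 14 windows, the cluster among them. Among the 1203 windows with at least 5 GR-cell sites, 2.33% had as high a share of them held by the MR/GR cell as the cluster, and the median share was 20%. The window was placed on the cluster while the others were laid end to end from it, so the ranks are a description.

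**Figure D4:**
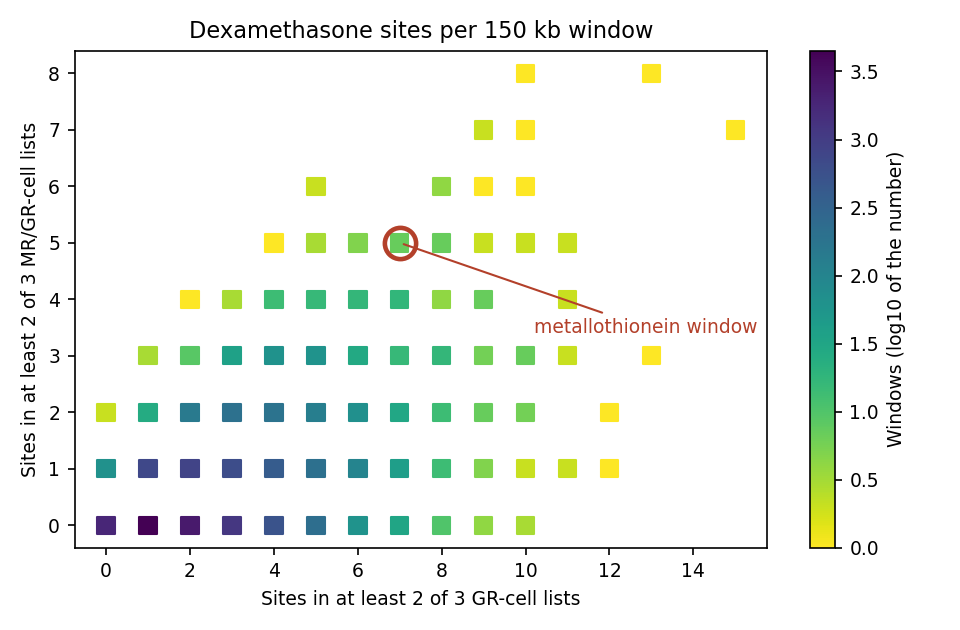
Windows of 150 kb by their number of sites in at least 2 of 3 GR-cell lists (horizontal) and at least 2 of 3 MR/GR-cell lists (vertical), after dexamethasone; colour is the log10 number of windows at each place. The circle marks the metallothionein window, with 7 and 5 sites.

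Sites on either side of the cluster were listed in the same way. The nearest treated site to the left, chr16:56521893-56522246, lay 59.2 kb from site 1 and the nearest to the right, chr16:56763705-56764058, lay 47.7 kb from site 7. Each was in 0 MR/GR-cell lists and 1 GR-cell list. The 150 kb to the left held 0 MR/GR-cell sites and 3 GR-cell sites, and the 150 kb to the right held 0 of either. The nearest other MR/GR-cell sites were 2281 kb to the left and 167 kb to the right. The left side was thus above the median of 2 GR-cell sites per window given above, and the right side was below it. Both sides were at the median of 0 MR/GR-cell sites.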

How the data were processed

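GR ChIP-seq peak lists of 2 stable human lines were used. The authors deposited 3 numbered lists per immunoprecipitation, each with chromosome, start and end of a peak and no score, so read depth is unknown. Per the submitters' processing notes, reads were handled with HOMER 4.8.3, Picard 1.115, SAMtools 1.3.1, Bowtie and Trim Galore 0.4 on hg19. The role of each tool, the input set against each list and the threshold are not given in the sources used here. All peaks of a list share 1 width, except 1 peak of treated GR-cell list 2. A peak under the threshold is not listed, so an unlisted site may still be bound.

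Peaks of all 12 lists were merged by at least 1 bp of overlap, and a line held a site with peaks in at least 2 of its 3 lists. Peaks per list were compared by two-sided exact permutation tests, and background shares were taken over the whole genome. Motifs were exact matches on both strands. The merging was checked on simulated lists, whose sites lay further apart than sites 2 and 3. The tests were checked on short sets of constant values with a known exact p. Versions were matplotlib 3.10.9, SciPy 1.17.1, pandas 2.3.3, numpy 2.4.6 and Python 3.11.15.

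The members, gene list, motifs and tests were chosen with earlier results of these data known. Sites named in full were those in all 6 treated lists, or in every list of 1 line and in 0 of the other line. Site 6 falls outside that rule and was added after its values were seen. Gene names and distances between genes come from a RefSeq table of GRCh38.p14. A genome or annotation of hg19 was not used here, and no coordinate was moved between builds.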

Additional observations from a re-analysis of the deposited data

How the results depend on the processing

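All 104 alternatives for 15 results kept their direction and their side of 0.05, or, for counts, stayed within 1.5 times the reported value. With 3 lists a side no exact test can reach 0.05, so for those a change of size also counts as kept. Every vehicle list had 0 peaks and every treated MR/GR-cell list 5, so leaving 1 of these out could not move a difference in peaks. A pseudocount of 0.5 moved the dexamethasone differences to 3.46 in the MR/GR cell and 3.84 in the GR cell (log2). Widening the window by 50 kb on each side moved the line difference to -0.41. Leaving out 1 list gave a line difference of -0.415 to -0.319 and a response over both lines of 2.74 to 2.79. The difference in share was then 4.01 to 8.35 per 10000 peaks, with 6 or 7 GR-cell sites against 5 of the MR/GR cell. Its exact permutation p went from 0.1 to 0.2 without any 1 of the treated GR-cell lists. Treated lists with the same number in both lines correlated over sites at 0.102, -0.0249 and -0.00670. Lists with different numbers correlated at -0.125 to 0.110, a range that holds these values. These correlations thus gave no sign of pairing between the lines, and pairing of treated with vehicle lists was not examined. Blocking by list number as a replicate, the response over both lines was 2.76 (exact sign-flip p = 0.0313, two-sided, 64 arrangements). Without scores or read depth, peak strength at these sites was not analysed here.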
